A study of Homo sapiens with 6 samples.

Results

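Aquaporins are channel proteins of the membrane, and 10 of their genes were followed here: AQP1, AQP2, AQP3, AQP4, AQP5, AQP6, AQP7, AQP8, AQP9 and AQP11, out of 25702 genes in the table. The members were picked by gene symbol from the rows of the table, and the family was taken up because AQP1 and AQP3 were already known to be among the most raised genes in this comparison. The values of siGLI1 against siNT2 libraries are therefore given for the members as a description, with standard errors and no p-value, and the calls that the fit over all genes made among them support nothing. RNA was sequenced from RMS13, an established line of human rhabdomyosarcoma, which is a tumour with features of skeletal muscle. In 3 libraries, called siGLI1, the cells had received a small interfering RNA (siRNA) against GLI1, the zinc finger transcription factor at the end of the Hedgehog pathway. In the other 3, called siNT2, they had received a non-targeting siRNA, and all cells were kept for 72 h. The labels give no treatment besides the siRNA, and they do not say how many siRNA sequences were used or whether the replicates were separate cultures, so each p-value below reflects how far these particular libraries scatter, and that scatter may be technical. Whether a difference came from lower GLI1 or from the siRNA sequence itself was not tested.

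Each aquaporin monomer holds a pore that lets water pass the membrane in single file, driven by osmotic differences. AQP1, AQP2, AQP4 and AQP5 carry mainly water, whereas AQP3, AQP7 and AQP9 also pass glycerol and other small solutes. AQP6 is known as an intracellular channel with anion conductance, AQP8 also carries ammonia and hydrogen peroxide, and AQP11 is a divergent member of the endoplasmic reticulum. In muscle tissue AQP4 is the channel of the fibre membrane, anchored there through the dystrophin complex, and AQP1 is known from the capillary endothelium.

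Depth ranged from 13673977 to 18947614 reads per library, and values are normalised read counts unless another unit is named. The floor for a count of 0 is 3 reads, equal to 2.39 to 3.29 normalised reads depending on the library, and it covers counting error only. GLI1 was at 6.48% of its siNT2 mean in the siGLI1 libraries. Of the muscle markers, MYOD1 (15135 to 21238 in siNT2, 14203 to 22293 in siGLI1) and MYOG were high in all 6 libraries, and MYF5, MYF6 and PAX7 had 3 reads or fewer in each. Group differences were fitted by limma to log2(value + 1) as siGLI1 less siNT2, a scale that understates the change of low genes, and a gene is called when its Benjamini-Hochberg adjusted p is under 0.05.

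AQP1 and AQP3 were the members with large values, and the bases before their start sites are shown because both stretches hold the letters of a TATA box and of GC boxes, a pairing that was noticed after the matches had been listed. The sequences are the 250 bases before the annotated start, 5′ to 3′ on the gene's strand, from RefSeq on GRCh38.p14. Capitals mark TATAAA and GGGCGG, the TATA box and GC box letters, on either strand. AQP7, the neighbour of AQP3 in gene order, is shown for comparison. The stretches are chr7:30911603-30911852 (plus strand) for AQP1, chr9:33447594-33447843 (minus strand) for AQP3 and chr9:33402569-33402818 (minus strand) for AQP7.
AQP1: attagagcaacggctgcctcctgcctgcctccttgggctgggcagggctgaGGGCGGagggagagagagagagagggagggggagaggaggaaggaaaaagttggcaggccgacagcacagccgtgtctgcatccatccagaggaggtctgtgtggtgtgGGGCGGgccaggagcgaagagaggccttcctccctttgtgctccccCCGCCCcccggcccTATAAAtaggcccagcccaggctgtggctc
AQP3: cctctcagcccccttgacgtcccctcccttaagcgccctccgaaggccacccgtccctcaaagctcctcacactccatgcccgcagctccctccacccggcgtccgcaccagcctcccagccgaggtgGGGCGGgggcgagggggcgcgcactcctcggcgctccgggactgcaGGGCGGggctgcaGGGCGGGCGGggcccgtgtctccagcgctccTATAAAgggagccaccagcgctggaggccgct
AQP7: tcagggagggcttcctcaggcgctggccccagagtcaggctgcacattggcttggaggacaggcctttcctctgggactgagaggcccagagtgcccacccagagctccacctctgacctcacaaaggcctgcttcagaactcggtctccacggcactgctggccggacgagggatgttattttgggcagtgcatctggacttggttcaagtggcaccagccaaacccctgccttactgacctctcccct

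In AQP1 the TATA box letters lay at bases -30 to -25, counted back from -1 at the base before the start, and in AQP3 at -32 to -27. The stretch of AQP1 held 3 matches to the GC box letters and that of AQP3 held 4, the last pair of which overlap, while the stretch of AQP7 held 0 of either. RefSeq windows of 300 bases, from 250 before to 50 after a start, were found for 8 of the 10 members, in 11 windows. The only members with both TATAAA and GGGCGG in a window were AQP1 and AQP3, and 1.88% of all 35116 windows held both. TATAAA alone was in 11.5% of all windows and also in windows of AQP2 (-29 to -24) and AQP4, and GGGCGG was in 44.95% of all windows and also in those of AQP5 and AQP7. The GLI letters GACCACCCA were in 0.24% of all windows and in none of the members' windows. The AP-1 letters TGANTCA (7.71% of all windows) and the forkhead letters TGTTTAC (3.42%) were likewise in none. The E-box letters CAGCTG (17.95% of all windows) were in AQP2, CACCTG (20.59%) in AQP8 and AQP9, and the NFAT5 core letters TGGAAA (20.75%) in AQP4. All motifs were searched on both strands, and a match is a run of letters, not a shown binding site. Guanine and cytosine made up 65.2% of the printed stretch of AQP1, 73.6% of that of AQP3 and 60.8% of that of AQP7, with a median of 58.0% over all windows.

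The water channel gene AQP1 (Entrez gene 358, chromosome 7) was the aquaporin with the highest count in every library. Its value was 346, 389 and 284 in siNT2 replicates 1, 2 and 3, and 3476, 4096 and 4615 in the siGLI1 replicates. The groups lay far apart, with the lowest siGLI1 library well above the highest siNT2 library. Means were 339.8 ± 53.1 in siNT2 and 4063 ± 570 in siGLI1 (SD, n = 3 each), with a ratio of 11.96 and a log2 difference of 3.58 (standard error 0.17). By the size of this difference AQP1 ranked 4 of the 15622 genes tested. The value behind it was well counted, from 1055 reads in the siNT2 and 11899 reads in the siGLI1 libraries.

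AQP3 (Entrez gene 360, chromosome 9), which passes glycerol as well as water and is best known from skin and the kidney collecting duct, was the other member with a large difference. In siNT2 it was at 223, 156 and 162, and in siGLI1 at 1321, 1280 and 1327. The siGLI1 values were close together and all above the siNT2 values. Means were 180.3 ± 37.0 and 1309 ± 25.7 (SD, n = 3 each), with a ratio of 7.26 and a log2 difference of 2.87 (standard error 0.17), which ranked 22 of the 15622 genes.

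AQP4 (Entrez gene 361, chromosome 18), the orthogonal-array-forming water channel of astrocyte endfeet and muscle fibres, was low in both groups. Its value was 6.59, 9.13 and 7.97 in siNT2 and 29.2, 26.6 and 13.8 in siGLI1. The groups did not overlap, although siGLI1 replicate 3 lay nearer to the siNT2 libraries than to the other siGLI1 libraries. The log2 difference was 1.39 (standard error 0.34) from 25 and 67 reads in all, and 0.94 with a pseudocount of 8. The antisense gene AQP4-AS1 overlaps AQP4, and reads of the pair cannot be told apart where counting ignores strand, which is not given in the sources used here. AQP4-AS1 was at 12.1, 5.07 and 3.99 in siNT2 and at 11.9, 7.16 and 7.90 in siGLI1, so its groups overlapped.

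The remaining members that passed the filter on low values were AQP11 and AQP6, and in both the groups overlapped. AQP11 (Entrez gene 282679, chromosome 11) was at 53.8, 47.7 and 71.0 in siNT2 and at 46.4, 60.3 and 37.5 in siGLI1. Its log2 difference was -0.26 (standard error 0.25). AQP6 (Entrez gene 363, chromosome 12) was at 13.2, 16.2 and 8.77 in siNT2 and at 25.9, 12.3 and 21.7 in siGLI1, where replicate 2 lay within the siNT2 range. Its log2 difference was 0.59 (standard error 0.36). AQP6 overlaps a noncoding gene, and AQP2 and AQP5 overlap AQP5-AS1, and the table has no row for either.

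The other 5 members had a mean under 10 over the 6 libraries and were left out of the main fit, so no fold is given for them. AQP9 (Entrez gene 366), a glycerol channel of liver and white blood cells, was at 2.20, 8.11 and 8.77 in siNT2 and at 5.40, 8.18 and 3.95 in siGLI1. AQP5 (Entrez gene 362), the water channel of glands and lung, was at 3.29, 6.09 and 3.19 in siNT2 and at 4.32, 1.02 and 13.8 in siGLI1. In both genes the groups overlapped, and the highest AQP5 value came from siGLI1 replicate 3 alone. AQP2, AQP7 and AQP8 had no siNT2 library above 3 reads. AQP2 (Entrez gene 359), the vasopressin-regulated channel of the collecting duct, had 0 reads throughout siNT2 and 1, 2 and 6 in siGLI1. AQP7 (Entrez gene 364), the glycerol channel of fat cells, had 0 reads throughout siNT2 and 1, 3 and 3 in siGLI1. Although neither gene's groups overlapped, the AQP7 reads stayed at or under the floor in all 6 libraries, and 1 siGLI1 library of AQP2 passed it. AQP7 has near-identical copies in the genome, so its reads may have been split or dropped, and the copies AQP7P1 and AQP7P3 had 0 reads in all 6 libraries. AQP8 (Entrez gene 343) had 0, 2 and 0 reads in siNT2 and 0, 1 and 4 in siGLI1, with overlapping groups. AQP8 stood above 3 reads in siGLI1 replicate 3 only.

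**Figure D1:**
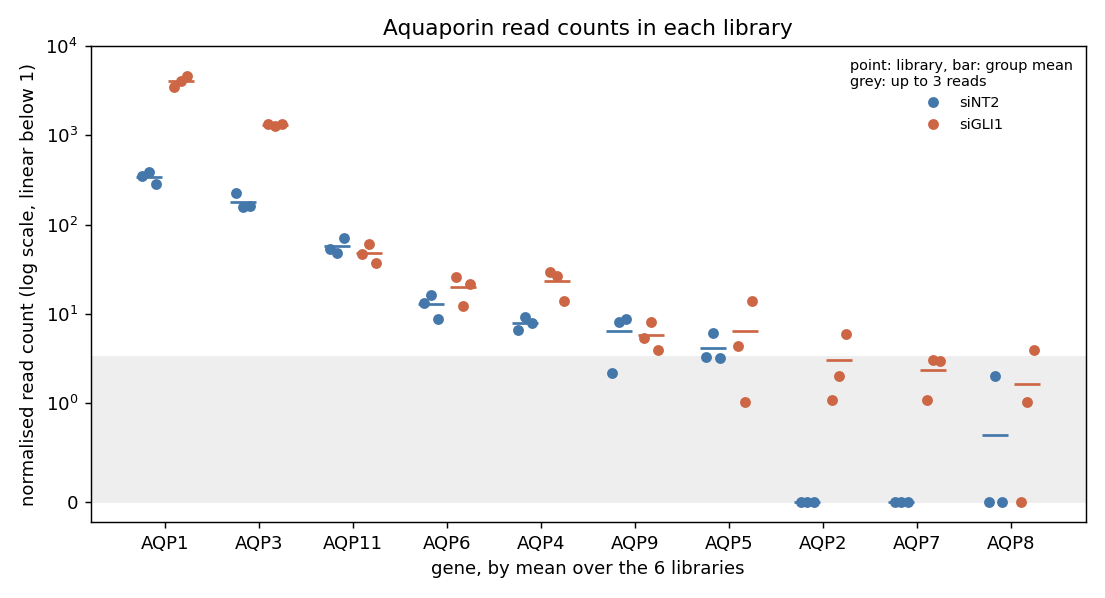
Normalised read count of each aquaporin gene (vertical axis, log scale, linear below 1) in the 3 siNT2 and 3 siGLI1 libraries, with points for libraries, bars for group means and grey for up to 3 reads. AQP1 at 3476 to 4615 and AQP3 at 1280 to 1327 in siGLI1 stand apart from their siNT2 values, while AQP2, AQP7 and AQP8 lie mostly within the grey band.

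The plot of counts by library divides the family into AQP1 and AQP3, 3 low members that passed the filter, and 5 at or near the floor. Of the 10 members, 5 had more than 3 reads in all 6 libraries (AQP1, AQP3, AQP4, AQP6 and AQP11). Of these 5, which are also the ones tested, 3 (AQP1, AQP3 and AQP4) were called higher, against 7.21% of all genes tested, and 0 were called lower, against 8.0%. The same 3 had every siGLI1 library above every siNT2 library, as did 17.4% of all genes tested. Since the family was taken up for this contrast, its choice fixed these counts and nothing is read from them. AQP4 also reached the filter, a mean of 10 over the 6 libraries, only through the siGLI1 libraries, with a siNT2 mean of 7.90 and a siGLI1 mean of 23.2. The AQP4 call held in 1 of the 6 fits that each left out a library, the one without siGLI1 replicate 3. Other genes of the family also had few reads: MIP, AQP12A and AQP12B had 3 or fewer in each library, and AQP10 had 4 at most.

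Levels of different genes can be compared only per length, here as normalised reads per kilobase of transcript in GENCODE release 29. In siNT2 cells AQP1 was at 117 ± 18.2 and AQP3 at 96.4 ± 19.8 (SD, n = 3), with ranges of 97.5 to 134 and 83.5 to 119 that overlap. AQP11 came next at 26.7 ± 5.61 and AQP6 at 5.67 ± 1.67 (SD, n = 3), and their ranges were apart from each other and from AQP3. AQP5, AQP9 and AQP4 followed at 2.89, 2.10 and 1.497, and the range of AQP5 (2.20 to 4.197) overlapped those of AQP6 and AQP9. In siGLI1 cells AQP1 was at 1395 ± 196 and AQP3 at 699.8 ± 13.7 (SD, n = 3), and their ranges no longer overlapped. AQP11 was at 22.3 ± 5.34, AQP6 at 8.90 ± 3.12 and AQP4 at 4.40 ± 1.56 (SD, n = 3), and the ranges of AQP6 (5.47 to 11.5) and AQP4 (2.62 to 5.53) overlapped. AQP5 lay between these at 4.41, with libraries from 0.705 to 9.54. Per coding length, AQP4 moved from the seventh place to the fifth in siNT2 and from the sixth to the fourth in siGLI1, ahead of AQP6, while the order of AQP1, AQP3 and AQP11 stayed the same. The means of AQP1 and AQP3 per coding kilobase were 421 and 206 in siNT2 and 5034 and 1495 in siGLI1. How near AQP1 and AQP3 lay in siNT2 thus depends on the length used.

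**Figure D2:**
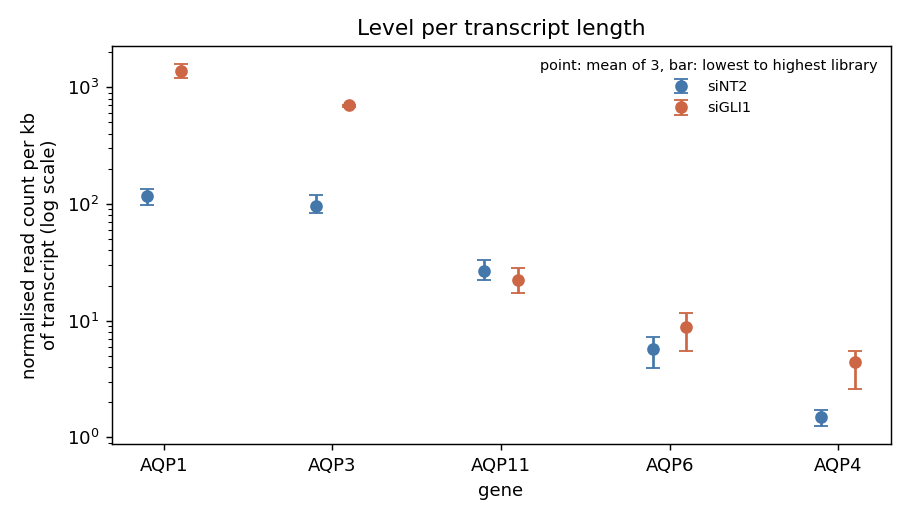
Normalised read count per kilobase of transcript (vertical axis, log scale) of the 5 members tested, as the mean of 3 libraries with a bar from the lowest to the highest. AQP1 and AQP3 overlap in siNT2 at 117 and 96.4 and are apart in siGLI1 at 1395 and 699.8. Per coding kilobase, which is not drawn, their siNT2 means were 421 and 206.

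As the plot of levels per kilobase shows, the summed level of the 10 members was mostly that of AQP1, AQP3 and AQP11, and the other 7 held 3.7% to 6.75% of it in siNT2 and 0.82% to 1.27% in siGLI1. The sum was 252.4 ± 23.1 per kilobase in siNT2 and 2140 ± 199 in siGLI1 (SD, n = 3 per group). AQP1 held 43.5%, 52.1% and 42.8% of it in siNT2 replicates 1, 2 and 3 and 61.4%, 65.8% and 67.7% in siGLI1. AQP11 went from 8.63% to 14.5% of the sum in siNT2 to 0.74% to 1.31% in siGLI1, although its own level overlapped between groups. The ratio of AQP1 to AQP3 per kilobase was 0.997, 1.602 and 1.13 in siNT2 and 1.69, 2.06 and 2.23 in siGLI1, so each siGLI1 library had a larger ratio than any siNT2 library. Among 14438 tested genes with a transcript length, 46.4% lay below AQP1 in siNT2 and 95.3% in siGLI1, and the shares for AQP3 were 41.9% and 88.2%. AQP11 stood above 19.2% and 17.3% of genes in the respective groups.

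The size of the AQP1 and AQP3 differences was tried under 15 other settings. AQP1 ranged from 3.46 to 3.71 and AQP3 from 2.78 to 3.03 on the log2 scale. AQP4 ranged from 0.94 to 1.71, AQP6 from 0.36 to 0.89 and AQP11 from -0.43 to -0.10.

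**Figure D3:**
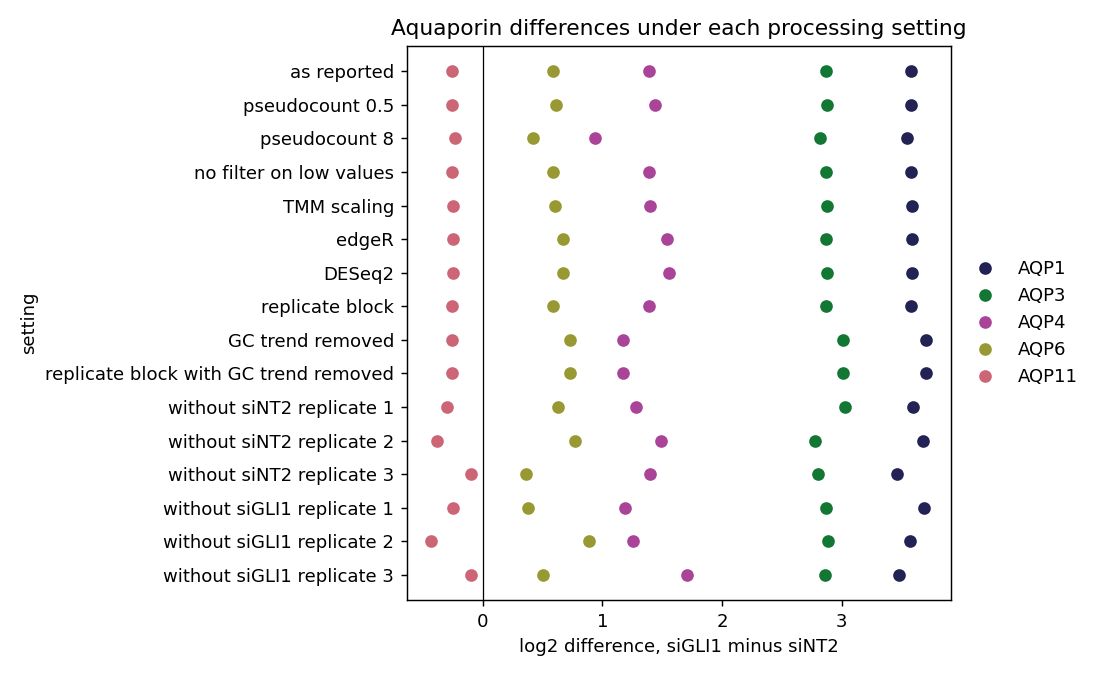
Log2 difference, siGLI1 minus siNT2 (horizontal axis), of the 5 members tested, as reported and under each other setting (vertical axis). AQP1 stays between 3.46 and 3.71 and AQP3 between 2.78 and 3.03, while AQP4 shifts most with a pseudocount of 8 (0.94).

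The plot of settings shows no change of sign for any of the 5 members. The genes whose log2 pattern over the 6 libraries, centred on the siNT2 mean, lay nearest to that of AQP1 were MYH8, AQP3, ANKRD1, MYOZ2 and KLHL41. Their root mean square differences from AQP1 were 0.32, 0.55, 0.56, 0.59 and 0.62, among 12657 genes with a mean of 50 or more. MYH8, a myosin heavy chain gene of developing muscle, averaged 23.2 ± 5.65 in siNT2 and 265.1 ± 54.2 in siGLI1 (SD, n = 3 each), and its reads may be shared with similar myosin genes. Nearest to AQP3 were DMBT1, MYOZ2, ASB5, KLHL41 and APOBEC2, at 0.22, 0.27, 0.27, 0.27 and 0.35. DMBT1, a secreted scavenger receptor gene of epithelia, averaged 131.0 ± 16.6 and 809.7 ± 92.4, and APOBEC2, a muscle member of the cytidine deaminase family, 75.6 ± 14.1 and 430.3 ± 54.9 (SD, n = 3 each). This likeness is a description of 6 libraries in 2 groups and mainly orders genes by the size of their group difference.

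None of the 4 nearest genes around AQP1, nor NFX1, NOL6 or SUGT1P1 beside AQP3, was called, and 4 of these 7 were too low to test. On chromosome 7, MINDY4 on one side of AQP1 and GHRHR and ADCYAP1R1 on the other had 0 reads in all 6 libraries. INMT, the next gene beyond MINDY4, was at 5.49, 11.2 and 7.18 in siNT2 and at 0, 1.02 and 3.95 in siGLI1, the opposite direction to AQP1. On chromosome 9, AQP7 and NFX1 lie on one side of AQP3, and NOL6 and SUGT1P1 on the other. NFX1 had a log2 difference of 0.21 (adjusted p = 0.295, limma), NOL6 one of -0.01 (adjusted p = 0.963, limma) and SUGT1P1 one of 0.26 (adjusted p = 0.566, limma). CHMP5, the second gene before AQP7, rose by 0.62 (adjusted p = 0.0449, limma). That call held in 1 of 6 leave-one-out fits, without siGLI1 replicate 3, and ended with the GC trend removed (adjusted p = 0.0547). On chromosome 12, AQP2, AQP5 and AQP6 follow each other. FAIM2 on one side had a log2 difference of 1.17 (adjusted p = 0.0966, limma; 0.0225 with the GC trend removed), and RACGAP1 and ASIC1 on the other of 0.17 (adjusted p = 0.551, limma) and -0.10 (adjusted p = 0.816, limma), while LINC02396 had a mean of 0.34 and 2.33.

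**Figure D4:**
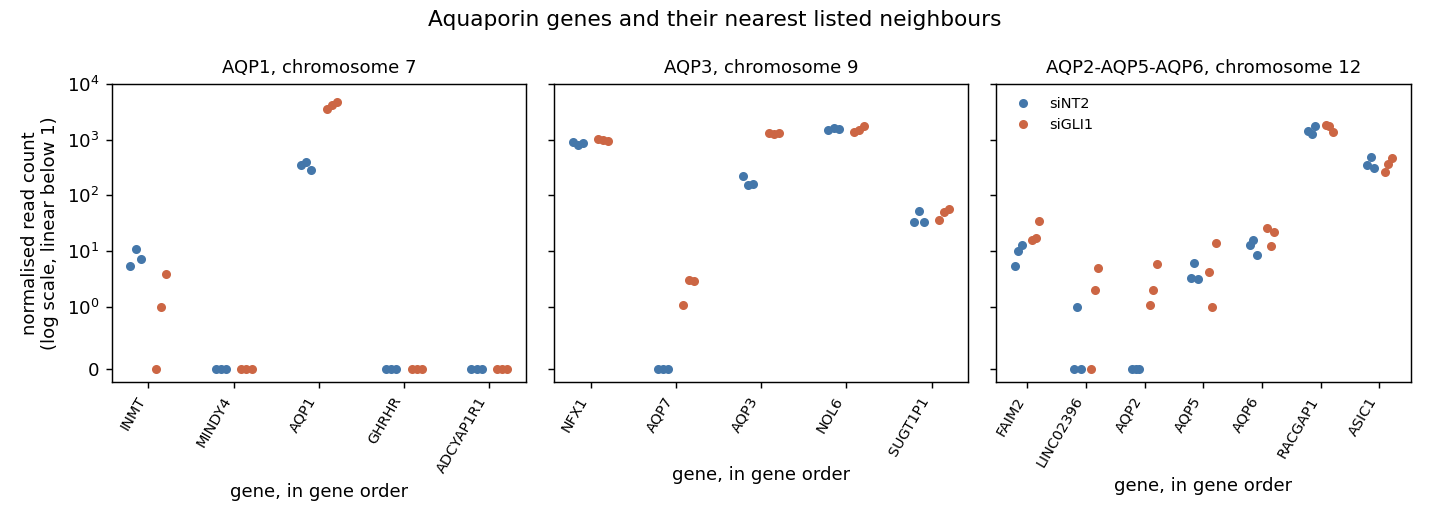
Normalised read count (vertical axis, log scale, linear below 1) of AQP1, AQP3 and the AQP2, AQP5 and AQP6 group with the nearest genes in the table on each side, in gene order; points are libraries. Apart from AQP1, no gene around it passed 11.2 in any library. AQP3 lies between AQP7 and NOL6, with NFX1 beyond AQP7. The log2 differences of NFX1 and NOL6 were 0.21 and -0.01.

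The plot of neighbours shows AQP1 among genes with few or no reads. Around AQP3, AQP7 had 3 reads or fewer in each library, and SUGT1P1 averaged 39.7 in siNT2 and 47.3 in siGLI1. NFX1 averaged 857.2 and 991.8 and NOL6 1541 and 1538, against 180.3 and 1309 for AQP3. The groups of NFX1 did not overlap, though it was not called. Cell types that are known to hold aquaporins were looked for through 10 marker genes each. For AQP1, 3 of 10 endothelial markers passed the filter and 1 was called higher, PECAM1, an adhesion molecule gene that averaged 10.99 ± 4.71 in siNT2 and 86.4 ± 4.54 in siGLI1 (SD, n = 3 each; log2 difference 2.96, adjusted p = 0.00226, limma). The endothelial sum was 143.8 to 160.2 in siNT2 and 222.9 to 259.8 in siGLI1. The other 2 tested, TEK with means of 66.4 and 48.8 and CLDN5 with 49.3 and 71.4, were not called and their groups overlapped. VWF was at 7.32 and 5.06, CDH5 at 3.79 and 6.58 and KDR at 5.80 and 3.13 in siNT2 and siGLI1, and ERG and EMCN had 3 reads or fewer in each library. TIE1 was at 6.61 and 11.5, with overlapping groups. ROBO4 was at 2.38 and 6.93, with every siGLI1 library above the siNT2 libraries, and both were too low to test. The red cell sum was 3.3 to 20.3 in siNT2 and 14 to 35.6 in siGLI1, with HBB and GYPB at 0 in all 6 libraries. For AQP3, 1 of 10 epithelial and keratinocyte markers passed the filter and was not called, their sum was 70 to 78 in siNT2 and 51.4 to 61.3 in siGLI1, and CDH1, CLDN4, KRT5, KRT14, KRT19 and ESRP1 had 3 reads or fewer in each library. EPCAM, the marker that passed, was at 52.1 and 33.4, CLDN7 at 10.1 and 7.14 and GRHL2 at 6.61 and 7.57. OVOL1 was at 0.27 and 5.43, with every siGLI1 library above the siNT2 libraries. The kidney collecting duct sum was 1162 to 1358 in siNT2 and 1563 to 1781 in siGLI1, mostly TFAP2B, with FXYD4 and UMOD at 0, and 1 of the 5 tested was called higher (HSD11B2). For AQP4, 1 of the 5 astrocyte markers tested was called higher (AGT) and 1 lower (SOX9), and GFAP was at 3.26 and 3.02. The astrocyte sum was 2760 to 3538 in siNT2 and 1468 to 2008 in siGLI1, mostly SOX9 (means 2807 and 1432). The adipocyte sum was 10.4 to 22.0 and 17.3 to 21.7, with LPL and CIDEA at 0, the hepatocyte sum 27.4 to 50.2 and 8.6 to 12.3, where the 1 marker tested (APOB) was called lower, and the white blood cell sum 71.8 to 113.6 and 99.4 to 201.5, where 1 of 3 tested was called higher (ITGAM). APOB reached the filter only through the siNT2 libraries, with means of 35.1 in siNT2 and 0.67 in siGLI1. The calls of HSD11B2, SOX9 and ITGAM ended when siNT2 replicate 1 or siGLI1 replicate 2 was left out. Of 7 tested muscle markers, 2 were called higher (CHRNA1 and DES) and 0 lower. Both calls ended when siNT2 replicate 1 was left out, that of CHRNA1 also when siGLI1 replicate 2 was. Beside these marker counts, 7.21% of all genes tested were called higher and 8.0% lower. The part of the markers that moved in the aquaporin values was not tested, and in bulk RNA fewer cells of a type and less RNA per cell cannot be told apart.

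Glycerol that passes AQP3 and AQP7 is released from stored fat and used again by kinases and acyltransferases, and most of these genes were not called. Of 27 tested genes of glycerol release and reuse, 2 rose and 2 fell, near the 7.21% and 8.0% over all genes tested, and 23 were not called, with a median log2 difference of 0.20 against -0.01 over all genes tested. MGLL, the lipase that frees glycerol from monoacylglycerol, was at 1249, 1293 and 1205 in siNT2 and at 3213, 3076 and 3225 in siGLI1. Its siGLI1 libraries were all higher, and it rose by 1.34 (standard error 0.11, adjusted p = 0.000704, limma). G0S2, an inhibitor of triglyceride lipase, rose by 2.16 from a mean of 10.7 (adjusted p = 0.0123, limma). Without siGLI1 replicate 2 its difference was 2.14 but the call ended (adjusted p = 0.0666, limma). AGPAT3, an acyltransferase of phospholipid synthesis, fell by 1.14 (adjusted p = 0.00646, limma). GK, the glycerol kinase gene, fell by 0.81 (adjusted p = 0.0464, limma), a call that held in 1 of 6 leave-one-out fits, without siGLI1 replicate 1, and ended with no filter on low values (adjusted p = 0.0672).

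Genes of the response to osmotic stress and of cell volume control were mostly not called. Over all genes tested, 7.21% were called higher and 8.0% lower. Of 16 osmotic stress genes tested, 1 rose and 3 fell (median 0.13), and NFAT5 itself was not called. The heat shock gene HSPA1B had a difference of -0.76 (adjusted p = 0.00812, limma) and HSPA1A of -0.69 (adjusted p = 0.0141, limma), uncertain values because the copies are nearly identical, and both calls ended when siNT2 replicate 1 or siGLI1 replicate 2 was left out. SPHK1, a sphingosine kinase gene, fell by 1.77 (adjusted p = 0.0162, limma), which ended when siNT2 replicate 3 or siGLI1 replicate 2 was left out. HSPA4L rose by 1.39 (adjusted p = 0.0431, limma), a call that held in 1 of 6 leave-one-out fits, without siGLI1 replicate 3. Of 22 cell volume channel and ion cotransporter genes tested, 1 rose and 1 fell (median 0.11). LRRC8A, the required subunit of the volume-regulated anion channel, was at 2299, 2834 and 2532 in siNT2 and at 798.1, 639.0 and 874.1 in siGLI1. All its siGLI1 libraries were lower, and it fell by 1.74 (standard error 0.16, adjusted p = 0.00107, limma). The 3′ untranslated stretch of LRRC8A holds 1 copy of the letters GCACCTC. Counting these letters was not among the planned comparisons. Of tested genes with 1 or more copies, 18.4% were called lower, against 7.2% of those with 0. The length of the stretch was not taken into account, and no share called higher was counted. Whether the letters bear on the fall of LRRC8A was not tested.

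Of 26 genes of aquaporin anchoring and vesicle traffic, 3 rose and 1 fell (median 0.21), beside 7.21% and 8.0% over all genes tested. SNTB1, a syntrophin of the dystrophin complex, averaged 239.0 ± 52.1 in siNT2 and 785.0 ± 178 in siGLI1 (SD, n = 3 each; log2 difference 1.71, adjusted p = 0.0042, limma). MYO5B, a motor of recycling vesicles, rose by 1.82 (adjusted p = 0.0013, limma). DAG1, the dystroglycan gene, rose by 0.57 (adjusted p = 0.0248, limma), a call that held in 1 of 6 leave-one-out fits, without siGLI1 replicate 3, and EZR, the ezrin gene, fell by 0.71 (adjusted p = 0.0131, limma), which ended when siNT2 replicate 1 or siGLI1 replicate 2 was left out.

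Of 9 tested carbonic anhydrase and bicarbonate carrier genes, 0 rose and 3 fell (median -0.40), and 11 more were too low to test. The shares over all genes tested were 7.21% higher and 8.0% lower. CA12, a membrane-bound carbonic anhydrase, was at 24.2, 29.4 and 25.5 in siNT2 and at 4.32, 0 and 2.96 in siGLI1, where the mean of 2.43 is under the floor. CA12 reached the filter on low values only through the siNT2 libraries, with a mean of 26.4. Its call held in all 6 fits that left out 1 library (adjusted p = 0.0123 with all libraries, limma). SLC4A5 had a difference of -1.07 (adjusted p = 0.0143, limma) and CA11 of -1.15 (adjusted p = 0.0331, limma). The SLC4A5 call ended when siNT2 replicate 1 or siGLI1 replicate 2 was left out, and the CA11 call with either of these, siNT2 replicate 2 or siGLI1 replicate 1 left out. The urea and ammonia channel genes SLC14A1, SLC14A2, RHAG, RHBG and RHCG had 3 reads or fewer in each library.

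Of 14 tested transcription factor genes tied to aquaporin transcription, 3 rose and 3 fell (median 0.03), beside 7.21% and 8.0% over all genes tested. TP73, a p53 family gene, had a difference of -1.13 (adjusted p = 0.0117, limma), the nuclear receptor gene RXRA of -0.80 (adjusted p = 0.0247, limma) and PPARD of -0.75 (adjusted p = 0.0415, limma). Like LRRC8A, TP73 holds 1 copy of GCACCTC in its 3′ untranslated stretch. AGT, which was called higher, FAIM2, which was not called, and AQP2, which was not tested, also hold 1 copy each. The glucocorticoid receptor gene NR3C1 rose by 1.30 (adjusted p = 0.0153, limma), the AP-1 subunit gene JUN by 0.76 (adjusted p = 0.0352, limma) and PPARA by 0.66 (adjusted p = 0.0454, limma). The calls of TP73, RXRA, NR3C1 and JUN each ended when siGLI1 replicate 2 was left out, and those of PPARD and PPARA held in 1 of 6 leave-one-out fits, without siGLI1 replicate 3. Those of NR3C1, RXRA and JUN were also lost without siNT2 replicate 1, those of RXRA and JUN without siNT2 replicate 3, and that of RXRA without siNT2 replicate 2 or siGLI1 replicate 1.

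**Figure D5:**
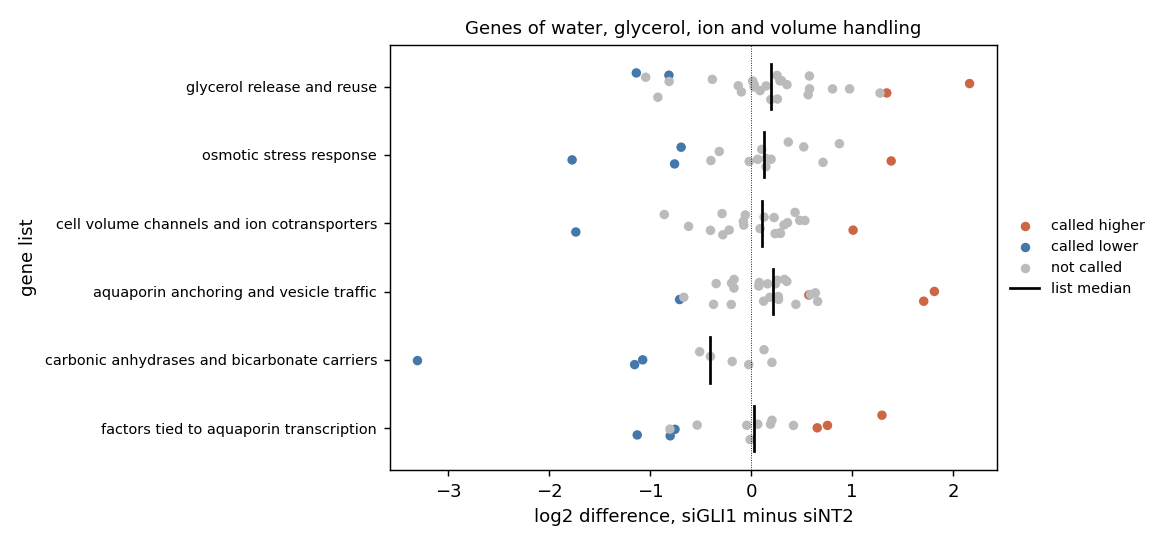
Log2 difference, siGLI1 minus siNT2 (horizontal axis), of each tested gene in 6 lists (vertical axis), coloured by whether limma called it, with a bar at the list median. The medians lie between -0.40 for carbonic anhydrases and bicarbonate carriers and 0.21 for anchoring and traffic.

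The plot of lists shows genes on both sides of 0 in every list.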

How the data were processed

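Gene counts came from 6 RNA-seq libraries of RMS13 cells, 3 per group. The authors deposited signal values: each is a count of reads on a gene scaled by its library's size factor, not by length. Per the submitters' processing notes Bowtie2 2.3.3.1 was used with hg19. The same notes name Trim Galore 0.4.5 and bcl2fastq, and for counting and scaling Subread 1.6.4 (featureCounts) and DESeq2 2.11.40.6. Which annotation and strand setting were used, and what became of reads with several matches, is not given in the sources used here. In each column 100.0% of values were whole multiples of 1 read within 0.01 reads, so whole reads were recovered (13673977 to 18947614 per library).

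Symbols came from RefSeq (GRCh38.p14), which named 92.2% of the 25702 IDs and was used for names and gene order. Transcript lengths and GC content came from GENCODE release 29, from the transcript with the longest coding sequence. The test was limma 3.58.1 in R 4.3.3 (lmFit, eBayes with trend) on log2(value + 1), with group as the only term, for 15622 genes with a mean of 10 or more. P-values were adjusted by Benjamini-Hochberg over all of them. The scripts were checked on simulated counts. On recovered reads edgeR 4.0.16 called 1182 genes higher and 1200 lower, and DESeq2 1.42.0 called 1645 higher and 1634 lower.

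The members, lists and tests were chosen with earlier results of these data known. Named genes were the 10 members, GLI1, up to 4 called genes with the smallest p in each pathway list, the 2 nearest listed neighbours on each side, and the 5 genes nearest to AQP1 and AQP3 in pattern. NFAT5, PPARD, PPARA, AQP4-AS1, the marker genes and the other genes of the family are named outside that rule, and 1 called gene of the cell volume list is not reported here. No comparison of proteins was made. The chi-square statistic per gene between replicates of a group ranged from 10.27 to 65.17, where sampling noise alone would give about 1. No p-value was taken from it.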

Additional observations from a re-analysis of the deposited data

How the results depend on the processing

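The differences of AQP1 and AQP3 moved by less than the spread between replicates under each of the 15 alternatives: pseudocounts of 0.5 and 8, no filter on low values, TMM scaling, edgeR, DESeq2, a replicate block, removal of the GC trend per library, the last 2 together, and leaving out each library. With 1 library left out, AQP1 ranged from 3.46 to 3.69 and AQP3 from 2.78 to 3.03. The counts over all genes were less stable. The 1127 higher and 1249 lower genes became 2474 and 2370 with the GC trend removed, and 280 to 1543 and 359 to 1704 with 1 library left out. Deviations of libraries with the same number from their group means had correlations of 0.49, -0.11 and -0.61 for numbers 1, 2 and 3. With 3 libraries per group these values cannot decide whether the numbers pair the samples. Libraries of the same number share a name prefix across groups, and the labels do not say what it marks. The replicate block gave 462 higher and 508 lower genes, and the replicate block with the GC trend removed gave 1939 higher and 1857 lower. Among named genes, the replicate block alone ended the calls of GK, CHMP5, DAG1, HSPA1B, HSPA1A, EZR, HSPA4L and SOX9. Those of CHRNA1, DES, CA11, RXRA, JUN, PPARA and PPARD ended with it too. The cause of these shifts was not tested. Over 45 tested genes that are no members, 587 of the alternative values kept their side of the threshold (11 of these had the other sign, never called), 84 lost a call and 2 gained one. Among the members, the AQP4 difference moved from 1.39 to 0.94 with a pseudocount of 8, and AQP6 and AQP11 moved by less than the spread between replicates. No alternative is given for the 5 members with means under 10, whose reads limit what can be seen.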
